A study of Homo sapiens with 12 samples.

Results

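The data described here are the messenger RNA profiles of A549 cells that received either a lentivirus carrying VGF or the empty vector. A549 is an established human lung adenocarcinoma line, described in the labels as non-small-cell lung cancer cells of wild-type genotype and grown in DMEM/F12 medium with fetal bovine serum. The members were chosen by the cell line and the mark CTRL or VGF OE in the sample titles. The treatment note in the labels is the same for all 12 samples, so it does not separate the groups. The members are 6 of the 12 libraries of the series, 3 with the empty vector (control libraries 1 to 3) and 3 with VGF (VGF libraries 1 to 3). The other 6 libraries are the same design in H1299, a second non-small-cell lung cancer line. They were fitted together with the A549 libraries, so they also enter the filter, the scaling and the estimated spread behind each A549 p-value. Their own values are given only where the lines are compared. The labels do not say whether the transduced cells are 1 clone or a pool, which promoter drives the transgene, when RNA was taken, or whether the libraries came from separate cultures, so p-values measure the spread between these libraries, which may be technical.

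VGF is a neuroendocrine secretory protein of the granin family. It is stored in dense-core vesicles of neurons and endocrine cells, where prohormone convertases cut it into several peptides that are released on stimulation. Its gene was found as a target of nerve growth factor, and lung epithelial cells usually express little of it.

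The libraries held 31378171 to 41919484 counts. Levels are given as CPM, the library's counts scaled to a fixed total, after TMM scaling for library composition, given in the order of library 1, 2 and 3. Replicates of a group differed by a median SD of 0.0805 (control) and 0.0838 (VGF) on the log2 scale over 10322 well expressed features. Epithelial keratins were abundant (KRT8, 120606 to 147299 counts per library) and CDH1 had 2653 to 3190 counts, whereas EPCAM had 17 to 36 counts and the alveolar type II markers SFTPC, SFTPB, NAPSA and NKX2-1 had 0 to 48. VGF library 2 stood apart. The summed level of 20 endothelial markers was 72.9 to 83.6 CPM in the control libraries, 82.4 and 87.5 CPM in VGF libraries 1 and 3, and 575 CPM in VGF library 2. There PECAM1 had 3305 counts against 19 to 61 in the other 5 libraries, and CLEC14A had 580 counts against 0. Of the 20 markers, EGFL7 and ESAM made up most of the sum in the other libraries, so it does not show traces of the rest. Control libraries 1, 2 and 3 lacked any count for 11, 13 and 7 of the markers. VGF libraries 1 and 3 lacked any for 1 and 4. MMRN1 had 0, 0 and 18 counts with the empty vector, against 2 and 16 in VGF libraries 1 and 3. Leaving out VGF library 2 therefore does not remove every endothelial marker count. Markers of leukocytes and erythroid cells were not raised in VGF library 2 (PTPRC and HBB at 0 there), and of the fibroblast list POSTN had 473 counts there against 0 to 6 elsewhere while COL1A2 was at 0 in all 6. The part of these transcripts in the results was not tested beyond repeating the fit with VGF libraries 1 and 3 alone. Not every value below is also given for that fit.

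VGF itself rose in every VGF library. VGF (ENSG00000128564, chromosome 7, 101162509 to 101165593, minus strand on GRCh38, a protein-coding gene) was at 2.74, 2.54 and 2.02 CPM in the control libraries and at 1361, 1201 and 1287 CPM in the VGF libraries. The means were 2.43 ± 0.373 and 1283 ± 80.1 CPM (SD, n = 3). The log2 fold change was 9.04 (SE 0.14, edgeR adjusted p = 6.1e-13), and without VGF library 2 the change was 9.09. Reads of the transgene and of the cell's own VGF gene cannot be told apart in these counts. The list of granins and prohormone processing genes held 20 tested genes, of which VGF rose and SCG2, another granin stored in dense-core vesicles, fell. SCG2 was low throughout, at 2.21, 2.54 and 2.65 CPM in the control libraries and 1.47, 1.05 and 1.5 CPM in the VGF libraries (log2 fold change -0.89, adjusted p = 0.0441), and its call was lost with any 1 of the 6 libraries left out (adjusted p of 0.0818, 0.121, 0.0987, 0.0603, 0.104 and 0.0637 for control libraries 1 to 3 and VGF libraries 1 to 3). The list's median log2 fold change was -0.058 (-0.048 without VGF library 2 and -0.11 without VGF library 3), against 0 over all 18228 tested features.

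Of the 18228 features, 144 were called at an adjusted p under 0.05 (0.790% of those tested), 74 higher (0.406%) and 70 lower (0.384%) with VGF. The calls comprised 133 annotated genes and 11 unannotated loci. At an unadjusted p under 0.05 there were 2528. Most changes were small. Among the 114 called genes with an annotation, 5 CPM or more in either group and a consistent sign over the 9 control-VGF library pairs, the median absolute log2 fold change was 0.36, 9 exceeded 1 and 80 were under 0.5. All 3 VGF libraries lay on the same side of all 3 control libraries for each of the 144 calls, and for 18.4% of all tested features.

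With VGF libraries 1 and 3 only, 96 of 18694 features were called (0.514%), 51 higher and 45 lower. These included 67 of the 144 (36 higher, 31 lower), and each of the 144 kept its direction. The 77 that lost the call had adjusted p-values of 0.0538 to 0.156. Of the 144, 40, 60 and 60 kept the call without control libraries 1, 2 and 3, and 77, 67 and 51 without VGF libraries 1, 2 and 3, so 4 of the other 5 libraries ended more calls than VGF library 2 when left out. Dropping a library lowers power as well. 32 features kept the call in each of the 6 fits that left out a library, and 33 kept it in none. The 32 include 26 annotated genes other than VGF at 5 CPM or more, 12 higher and 14 lower, which are named with their groups below.

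**Figure D1:**
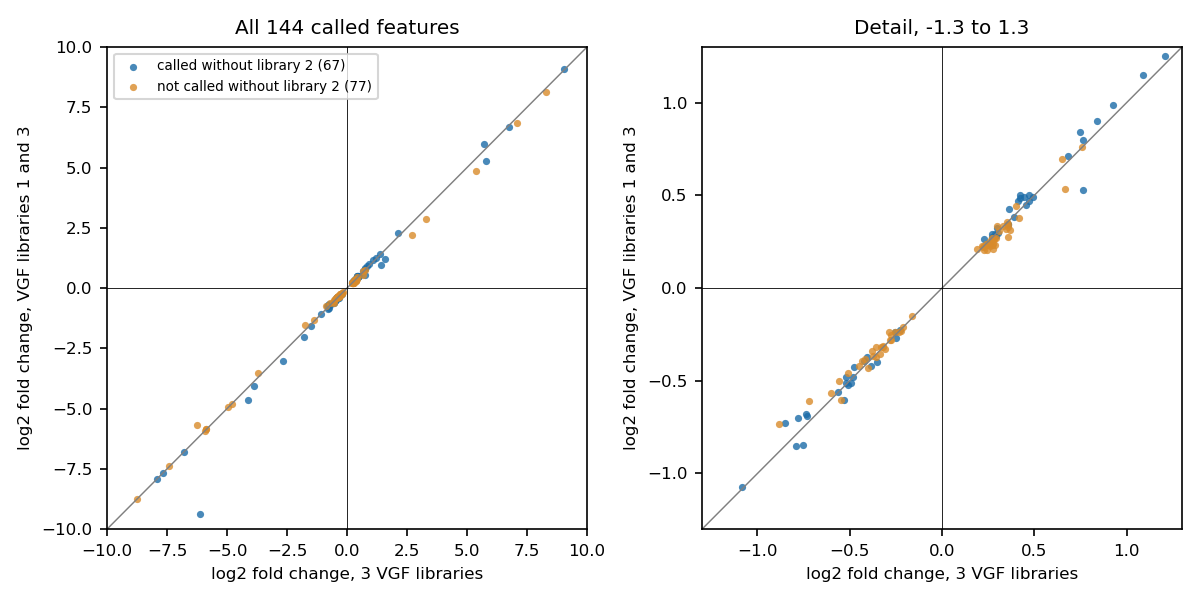
Log2 fold change of each of the 144 called features, VGF over empty vector, fitted with 3 VGF libraries (x axis) and with VGF libraries 1 and 3 (y axis), with the grey line marking equal values and the right panel enlarging the centre. Blue points are the 67 features still called without VGF library 2 and orange points the 77 not called, and every point keeps its sign.

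**Figure D2:**
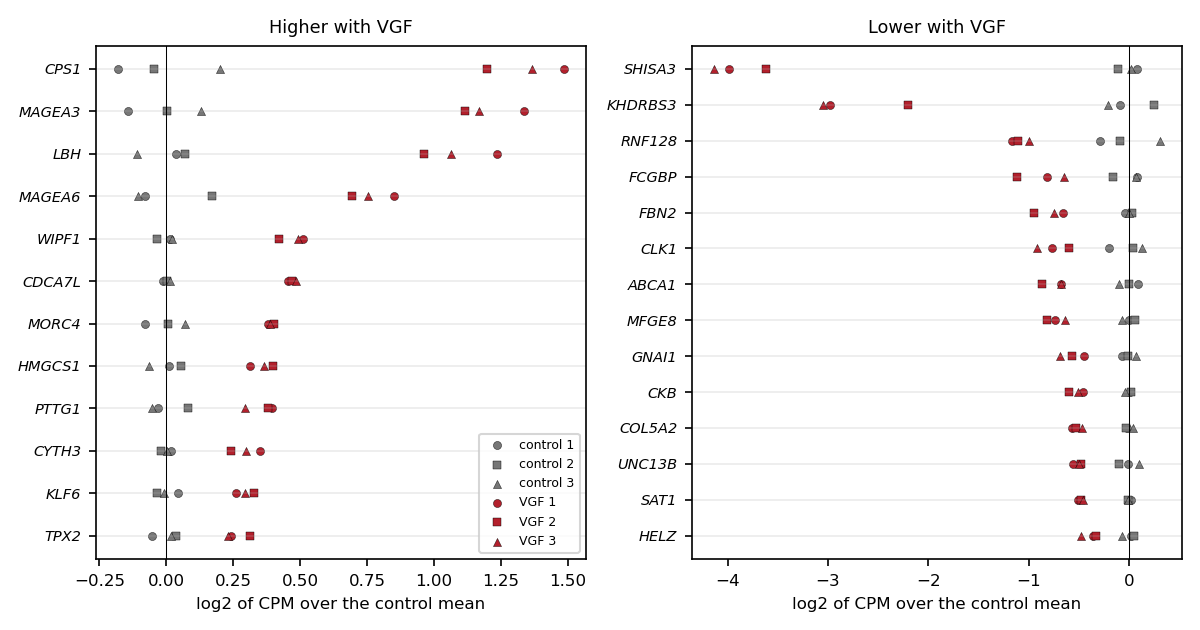
Level in each A549 library relative to the control mean, on a log2 scale, for the 26 genes other than VGF that kept the call whichever library was left out (12 higher, 14 lower). Grey symbols are control libraries and red symbols VGF libraries, and for each gene the red symbols lie wholly to one side of the grey ones, with SHISA3 and KHDRBS3 farthest to the left.

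The group with most called members among the rises was that of mitosis and chromosome segregation, formed after the calls were seen, with 14 genes. In mitosis the anaphase-promoting complex marks securin and cyclins for destruction, which frees separase to part the sister chromatids, while motor and microtubule proteins build the spindle. PTTG1, which encodes securin, was at 86.3, 93.2 and 84.9 CPM in the control libraries and 116, 115 and 108 CPM in the VGF libraries (log2 fold change 0.36, SE 0.051, adjusted p = 0.00896). TPX2, which activates Aurora A on spindle microtubules, was at 214, 228 and 226 CPM and 263, 276 and 261 CPM (log2 fold change 0.26, SE 0.039, adjusted p = 0.0103). For both genes the groups did not overlap and the call held without any 1 library, with a highest adjusted p of 0.041 and 0.0474. The largest rise of the group was that of FBXO43, known from meiosis as a brake on the anaphase-promoting complex, at 4.22, 4.42 and 5.56 CPM and 8.58, 8.0 and 7.48 CPM (log2 fold change 0.76, SE 0.14, adjusted p = 0.0322). The FBXO43 call was lost without control library 1 (0.121), control library 2 (0.111), VGF library 1 (0.0637), VGF library 2 (0.0654) or VGF library 3 (0.0565).

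The other called genes of the group are tied to several parts of the cell cycle. They were CCNA2, the S and G2 phase cyclin (0.29 on the log2 scale), CKS2, a cyclin-dependent kinase subunit (0.28), SPC25 of the NDC80 kinetochore complex (0.42), KIF22, a kinesin that moves chromosome arms (0.24), ASPM and CEP192 of the spindle pole and centrosome (0.31 and 0.27), CKAP2L, a spindle protein (0.36), TUBB4B, a beta tubulin (0.28), UBE2S, the ubiquitin-conjugating enzyme that extends chains for the anaphase-promoting complex (0.27), and PRR11 and DEPDC1B, which are cell cycle regulated (0.22 and 0.46). Without VGF library 2 the log2 fold changes of the 14 were 0.23 to 0.76, and DEPDC1B (adjusted p = 0.0399), TUBB4B (0.039), PTTG1 (0.028) and TPX2 (0.0331) kept the call. The other 10 had adjusted p-values up to 0.139 there. Leaving out control libraries 1, 2 and 3 kept 2, 3 and 7 of the 14 calls, with adjusted p-values up to 0.184, 0.150 and 0.110, and leaving out VGF libraries 1 and 3 kept 5 and 4, up to 0.0843 and 0.10. KIF22 shares 13% of its exonic bases with a gene on the other strand, and the counting's use of strand is not given.

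The list of 42 mitosis and spindle genes gave the same direction beyond the called genes. Of the 42, 40 had a positive log2 fold change, against 49.3% of all tested features, and the median was 0.19 (0.18 without VGF library 2, and 0.16 to 0.21 over the 6 fits that left out a library). 3 of the 42 were called (PTTG1, TPX2 and ASPM), none lower. VGF library 2 was the highest VGF library for 22 of the 42, library 1 for 10 and library 3 for 10. With that library left out, 40 of the 42 were positive. KIF11, the motor that separates the spindle poles, was at 116, 122 and 124 CPM and 144, 149.7 and 140.4 CPM (adjusted p = 0.0528). BUB1, a kinase of the spindle checkpoint, was at 102, 105 and 111 CPM and 119, 129 and 122 CPM (adjusted p = 0.0561). Neither passed the test, and both had groups that did not overlap. Both were highest in VGF library 2, and without it their edgeR adjusted p-values were 0.144 and 0.186. The 2 were picked from the list after their values were seen. The proliferation marker MKI67, picked in the same way, was at 499.5, 519 and 510.1 CPM and 565, 519 and 557 CPM, with VGF library 2 level with the highest control library.

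Many late cell cycle promoters carry an element called the cell cycle genes homology region, with the letters TTTGAA, which the DREAM and MYB-MuvB complexes recognise. The promoter windows in RefSeq (GRCh38.p14, 250 bases before to 50 after the gene's start) were searched for TTTGAA on both strands. Of 11494 tested genes with a window, 1143 (9.94%) held it. Of the 14 called mitosis genes 12 had a window and 8 of those held it (66.7%), and of the mitosis and spindle list 27 of 36 (75%). The G1/S and replication list had 2 of 34 (5.88%), the other genes called higher 3 of 45 (6.67%) and the genes called lower 5 of 52 (9.62%). A match is a description of the letters, not evidence of binding. Windows around matches that lie wholly upstream of the start are shown for 5 of the called mitosis genes, on the gene's strand and 5′ to 3′, with the element in capitals, written TTCAAA where it lies on the opposite strand:
ASPM: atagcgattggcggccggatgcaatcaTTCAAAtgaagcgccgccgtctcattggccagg
CKAP2L: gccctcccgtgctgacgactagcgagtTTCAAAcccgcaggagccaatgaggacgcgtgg
CEP192: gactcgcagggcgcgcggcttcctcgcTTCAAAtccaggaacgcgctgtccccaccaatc
SPC25: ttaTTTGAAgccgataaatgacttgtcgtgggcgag
TUBB4B: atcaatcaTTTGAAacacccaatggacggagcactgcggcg

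The ASPM window is chr1:197146750-197146809 (minus strand, match 113 bases upstream of the start). That of CKAP2L is chr2:112764663-112764722 (minus strand, 86 bases upstream), that of CEP192 chr18:12991141-12991200 (plus strand, 194 bases), that of SPC25 chr2:168890645-168890680 (minus strand, 247 bases) and that of TUBB4B chr9:137241037-137241077 (plus strand, 242 bases). SPC25 and CKAP2L held a second match, 3 and 17 bases upstream of their starts, and CKS2, PRR11 and DEPDC1B each held 1 near the start.

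Genes of DNA replication, histones and chromatin formed a second group of rises, again gathered after the calls were seen, with 10 genes at log2 fold changes of 0.19 to 0.47. CDCA7L, a MYC-interacting zinc finger protein, was at 31.1, 31.5 and 31.8 CPM in the control libraries and 43.2, 43.5 and 44 CPM in the VGF libraries (log2 fold change 0.47, SE 0.046, adjusted p = 6.31e-04). MORC4, a chromatin ATPase, was at 243, 258 and 269.6 CPM and 335, 339 and 335 CPM (log2 fold change 0.39, SE 0.053, adjusted p = 0.00551). Both kept the call without any 1 library, with the 3 VGF libraries close together and above every control library. CDCA7L shares 20.4% of its exonic bases with DNAH11 on the other strand.

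The remaining 8 of the group were smaller or less stable. They were NPAT, the activator of replication-dependent histone genes (0.40), PRIM1, the catalytic subunit of DNA primase (0.30), TCF19 (0.37), the histone chaperones DNAJC9 and ANP32E (0.28 and 0.25), the DNA-bending protein HMGB2 (0.29) and the histone variant genes H2AFV and H3F3B (0.27 and 0.19). Without VGF library 2, 3 of the 10 kept the call (CDCA7L, MORC4 and H2AFV) and the others had adjusted p-values up to 0.104, with log2 fold changes of 0.21 to 0.47 over the 10. Without control libraries 1, 2 and 3 and VGF libraries 1 and 3 the calls kept were 2, 2, 6, 6 and 4, with adjusted p-values up to 0.179. H3F3B and H2AFV have near-identical copies, and 28.6% of DNAJC9 exonic bases and 16.2% of PRIM1's are shared with neighbours, so their counts are uncertain. In the list of 39 G1/S and replication genes, 37 were positive and the median was 0.15 (0.13 without VGF library 2, 0.12 to 0.18 over the fits that left out a library), and PRIM1 was the 1 called. RRM2, the ribonucleotide reductase subunit made in S phase, had 180.2, 191 and 203 CPM and 225, 255 and 218 CPM, and TK1, thymidine kinase, 176, 189 and 174 CPM and 175, 162 and 179.7 CPM. Neither passed the test, with adjusted p-values of 0.0954 and 0.857, and only for RRM2, of these 2 genes picked after their values were seen, did the groups not overlap. Without VGF library 2 the adjusted p of RRM2 was 0.272.

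**Figure D3:**
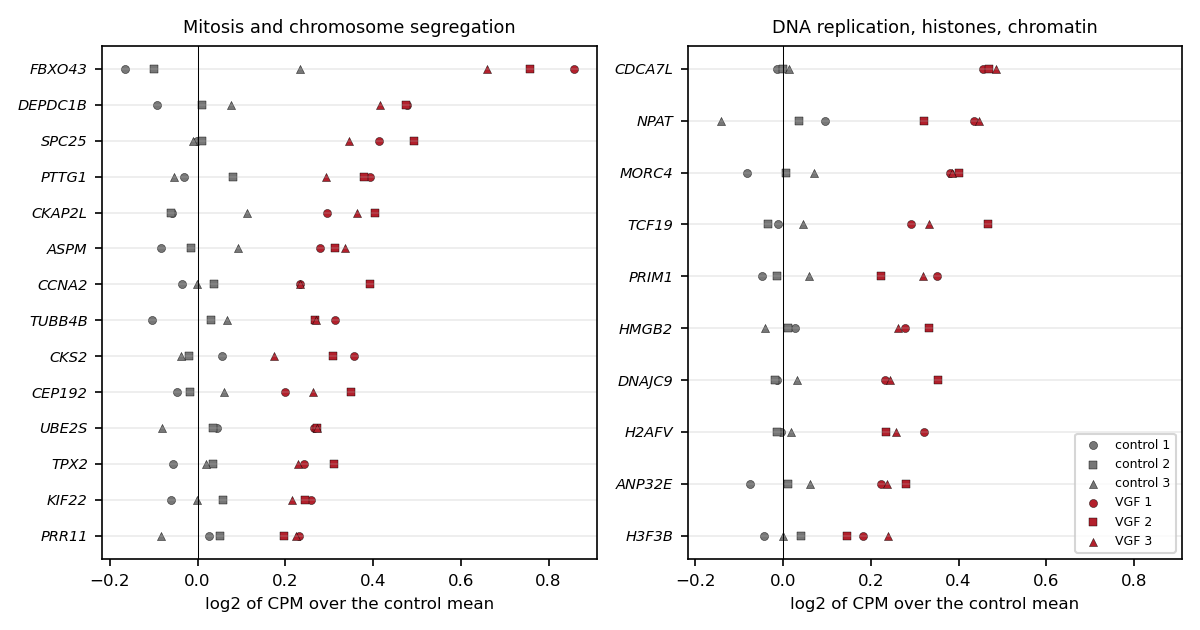
Level in each A549 library relative to the control mean, on a log2 scale, for the 14 called genes of mitosis and chromosome segregation (left) and the 10 called genes of DNA replication, histones and chromatin (right). Grey symbols are control libraries and red symbols VGF libraries; the 2 colours do not overlap for any gene, and most rises are smaller than 0.5, that of FBXO43 being the largest.

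4 genes of AP-1 and the early response rose (JUN, JUNB, KLF6 and KLF10), JUN and JUNB unevenly between VGF libraries. AP-1 is a dimer of JUN and FOS family proteins whose genes are switched on within minutes by growth factors and stress, together with EGR1, KLF and IER genes. JUN was at 53.8, 47.1 and 44.4 CPM in the control libraries and 68.1, 78.9 and 112 CPM in the VGF libraries (log2 fold change 0.84, SE 0.15, adjusted p = 0.0277). JUNB was at 69.3, 62.7 and 62.4 CPM and 95.4, 94.9 and 136 CPM (log2 fold change 0.75, SE 0.15, adjusted p = 0.0405). In both, the groups did not overlap and VGF library 3 was the highest. The JUN call was lost without control library 1 (0.0615), control library 2 (0.0964) or control library 3 (0.0855), and the JUNB call without control library 1 (0.101), control library 2 (0.138), control library 3 (0.101) or VGF library 3 (0.0734), so both were kept without VGF library 2. JUNB shares 14.2% of its exonic bases with a gene on the other strand. KLF6, a zinc finger factor, was even across the VGF libraries, at 102, 96.7 and 98.3 CPM and 119, 124 and 121 CPM (log2 fold change 0.29, adjusted p = 0.0113), and kept its call without any 1 library (highest adjusted p 0.0496). KLF10, a TGF-beta inducible factor, was at 76.4, 74.6 and 85.4 CPM and 100.4, 94.4 and 122 CPM (log2 fold change 0.42, adjusted p = 0.0496), and its call was lost without control library 1 (0.184), control library 2 (0.179), control library 3 (0.0592), VGF library 1 (0.0606) or VGF library 3 (0.0898). ELK3, a ternary complex factor of the ETS family, had a log2 fold change of 0.28 and was not called without VGF library 2 (adjusted p = 0.0888).

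The list of 28 AP-1 and immediate early genes had 25 tested members, of which 21 were positive, with a median log2 fold change of 0.29 and the 4 calls above. Without control libraries 1, 2 and 3 the list had 2, 1 and 1 calls, and without VGF libraries 1, 2 and 3 it had 5, 6 and 2. VGF library 3 was the highest VGF library for 14 of the 25, library 2 for 7 and library 1 for 4. Without VGF library 3 the median was 0.16, a change of over 1.5 times, and without VGF library 2 it was 0.28. EGR1, a serum-induced zinc finger factor, was at 1.48, 1.91 and 1.26 CPM in the control libraries and 2.67, 3.32 and 54.6 CPM in the VGF libraries. FOS was at 19.8, 21 and 26.4 CPM and 31.7, 35.9 and 135 CPM. In both genes the groups did not overlap and VGF library 3 held most of the difference, and neither was called with all libraries (adjusted p = 0.104 and 0.136). Without VGF library 2 the adjusted p-values were 0.0399 for EGR1 and 0.0917 for FOS. MYC was at 122, 127 and 114 CPM and 102, 127 and 149 CPM, which overlap. EGR1, FOS and MYC were picked after their values were seen.

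**Figure D4:**
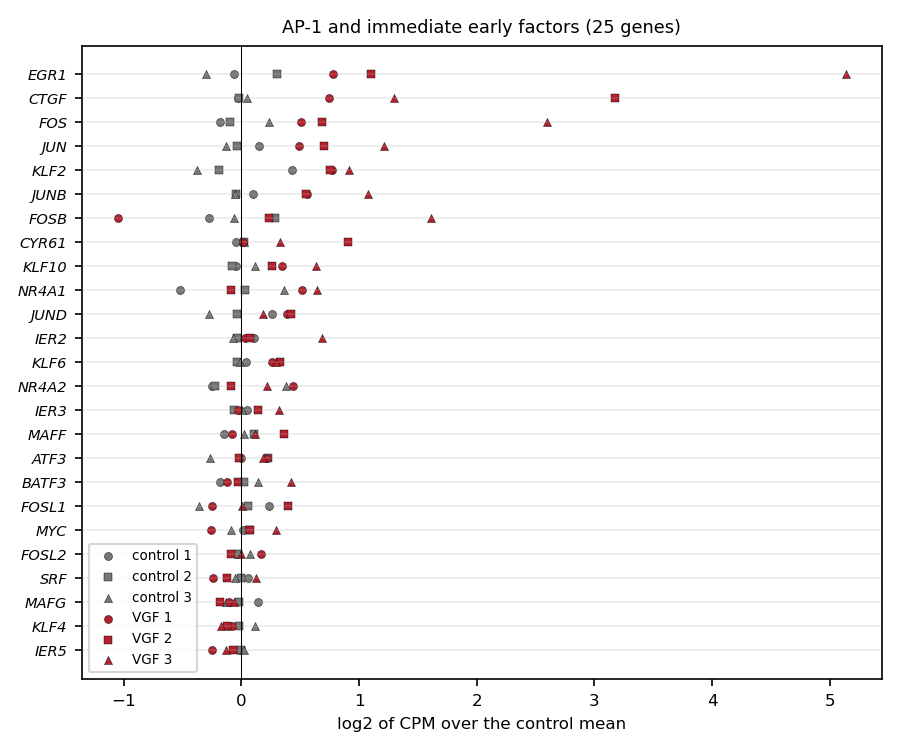
Level in each A549 library relative to the control mean, on a log2 scale, for the 25 tested AP-1 and immediate early genes, ordered by fold change. Grey symbols are control libraries and red symbols VGF libraries (circle 1, square 2, triangle 3); the red triangle stands far right for EGR1 and FOS, and CTGF stands highest in VGF library 2.

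Genes of the actin cytoskeleton and cell shape gave 10 rises and 3 falls, grouped after the calls were seen. RHOB, a small GTPase that is itself an early-response gene, was at 122, 132 and 137 CPM in the control libraries and 177, 199.8 and 249 CPM in the VGF libraries (log2 fold change 0.68, SE 0.11, adjusted p = 0.0175). Its VGF libraries were all above the control libraries, library 3 again the highest, and the call was lost without control library 1 (0.0818) or control library 2 (0.0576). WIPF1, which binds WASP and promotes actin branching, was at 56, 54.2 and 56.3 CPM and 79, 74.3 and 77.9 CPM (log2 fold change 0.47, SE 0.058, adjusted p = 0.00236), with tight groups and a call kept without any 1 library.

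The other rises among cytoskeletal genes were those of KRT80, a type II keratin (0.45), NAV1, a microtubule-end protein (0.35), CDC42EP3, an effector of CDC42 (0.33), TPM1, a tropomyosin (0.30), RDX, radixin, which ties actin to the membrane (0.26), TMOD3, which caps the pointed end of actin filaments (0.23), and the calponin family members TAGLN2 and CNN3 (0.23 and 0.22). Without VGF library 2, RHOB, WIPF1, KRT80, TPM1 and TAGLN2 kept the call (0.0293, 0.00419, 0.0064, 0.0293 and 0.0298) and the other 5 had adjusted p-values up to 0.0995. Without control libraries 1, 2 and 3 and VGF libraries 1 and 3 the calls kept were 2, 3, 6, 5 and 4 of 10, with adjusted p-values up to 0.184. TPM1 shares 21.4% of its exonic bases with antisense genes. The falls were those of SVIL, supervillin (-0.33), MICAL2, an actin-oxidising enzyme (-0.28), and RHPN1, a scaffold protein (-0.51), and none of the 3 was called without VGF library 2 (adjusted p = 0.0572, 0.0595 and 0.0913). Of the 48 tested genes of the actin cytoskeleton list, 35 were positive with a median of 0.082 (0.070 without VGF library 2), 5 rose (RHOB, WIPF1, TPM1, CDC42EP3 and CNN3) and 1 fell (PAK3).

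Among metabolic enzymes CPS1 had the largest rise after VGF. CPS1 (ENSG00000021826, chromosome 2, 210477682 to 210679107, plus strand) encodes mitochondrial carbamoyl phosphate synthetase, the entry enzyme of the urea cycle. It was at 52.6, 57.7 and 68.4 CPM in the control libraries and 167, 137 and 154 CPM in the VGF libraries, a 2.56-fold difference of means (log2 fold change 1.35, SE 0.14, adjusted p = 9.53e-04), and the lowest VGF library was above the highest control library. The call held without any 1 library (highest adjusted p 0.00916), with a log2 fold change of 1.43 without VGF library 2. Of the 23 tested genes of urea cycle, proline and glutamine metabolism CPS1 was the 1 called, and 9 were positive with a median of -0.056 (-0.079 to -0.018 over the 6 fits that left out a library). PDK4, the kinase that shuts pyruvate dehydrogenase, was at 40.5, 44.6 and 68.2 CPM and 105, 88.8 and 97.9 CPM (log2 fold change 0.93, SE 0.17, adjusted p = 0.0277), with control library 3 nearest to the VGF libraries. The PDK4 call was lost without control library 1 (0.0965), control library 2 (0.109), VGF library 1 (0.0606) or VGF library 3 (0.0637).

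4 further enzymes rose. HMGCS1, which makes HMG-CoA for cholesterol synthesis, was at 233, 240.2 and 221 CPM and 287, 305 and 298 CPM (log2 fold change 0.36, adjusted p = 0.00912) and kept the call without any 1 library, whereas the 26 tested genes of the cholesterol list had a median of 0.013 (-0.011 to 0.031 with 1 library left out) with 14 positive and no other call. HMGCS1 shares 14.9% of its exonic bases with a gene on the other strand. PDXK, pyridoxal kinase, changed by 0.42 and GLDC, the glycine cleavage enzyme, by 0.36, and both were called without VGF library 2 (adjusted p = 0.00419 and 0.0064). Without the other libraries their adjusted p-values reached 0.0743 and 0.0768, both without control library 1. UGT1A9 changed by 0.35 and was not called without VGF library 2 (adjusted p = 0.083); it shares 61.2% of its exonic bases with the other UGT1A genes, so the member cannot be told.

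Genes of lipid, energy and redox metabolism gave 9 falls. ABCA1, which exports cholesterol to apolipoprotein A-I, was at 36.7, 34.4 and 32.1 CPM in the control libraries and 21.5, 18.9 and 21.5 CPM in the VGF libraries (log2 fold change -0.74, SE 0.089, adjusted p = 0.00229). SLC2A3, the glucose transporter GLUT3, was at 14, 12.2 and 18.6 CPM and 8.17, 9.28 and 8.37 CPM (log2 fold change -0.79, SE 0.12, adjusted p = 0.0133). No VGF library reached a control library in either gene. The ABCA1 call held without any 1 library (highest adjusted p 0.0158), and that of SLC2A3 was lost without VGF library 3 (0.0552). SAT1, which acetylates spermidine and spermine, and CKB, brain-type creatine kinase, also held throughout, at 763, 748 and 746 against 528, 540.0 and 549.6 CPM for SAT1 (-0.48, adjusted p = 9.53e-04) and 71.6, 72.1 and 68.8 against 51.8, 46.9 and 49.8 CPM for CKB (-0.52, adjusted p = 0.00335).

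The remaining falls of that kind were those of SCD, stearoyl-CoA desaturase (-0.26), PYGB, glycogen phosphorylase (-0.29), STEAP2, a metalloreductase (-0.35), RDH10, a retinol dehydrogenase (-0.45), and SPTLC3, a serine palmitoyltransferase subunit at 2.74, 2.24 and 3.73 against 1.06, 0.588 and 0.921 CPM. Without VGF library 2, SCD and STEAP2 were called (adjusted p = 0.047 and 0.0314), while PYGB (0.0811), RDH10 (0.0913) and SPTLC3 (0.0693) were not. Of the 9, calls kept without control libraries 1, 2 and 3 and VGF libraries 1 and 3 numbered 4, 8, 5, 5 and 4. In the glycolysis and hypoxia list 32 of 43 genes were positive with a median of 0.057 (0.056 without VGF library 2), and SLC2A3 was its 1 call. The fatty acid synthesis and storage list had 11 of 28 positive, a median of -0.066 (-0.058 without VGF library 2) and SCD as its 1 call. The fatty acid oxidation list had 12 of 26 positive, a median of -0.036 (-0.067 to -0.013 over the 6 fits that left out a library) and the rise of PDK4 as its 1 call.

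MAGEA3 and MAGEA6, cancer-testis antigens on chromosome X that are silent in most adult tissues, were among the most stable rises. MAGEA3 (ENSG00000221867, chromosome X, 152698752 to 152702347, plus strand) was at 11.7, 13 and 14.1 CPM in the control libraries and 32.7, 28 and 29 CPM in the VGF libraries (log2 fold change 1.21, SE 0.075, adjusted p = 9.41e-06). MAGEA6 (ENSG00000197172, chromosome X, 152766136 to 152769747, minus strand) was at 31.7, 37.6 and 31 CPM and 60.3, 54.1 and 56.3 CPM (log2 fold change 0.77, SE 0.069, adjusted p = 3.69e-04). The VGF libraries lay above the control libraries in both, and without any 1 library the adjusted p stayed at or below 1.3e-04 and 0.00434. The genes are near-identical, so reads may be split between them and 2 independent rises are not shown. Of 24 tested genes of the cancer-testis list these were the 2 called, and 10 were positive with a median of -0.022 (-0.096 without VGF library 2 and 0.028 without control library 2).

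LBH, a transcription cofactor known as a WNT target, rose and SHISA3, which holds WNT and FGF receptors in the endoplasmic reticulum, fell. LBH (ENSG00000213626, chromosome 2, 30231369 to 30323730, plus strand) was at 67.5, 69 and 61 CPM in the control libraries and 155, 128 and 137 CPM in the VGF libraries (log2 fold change 1.09, SE 0.095, adjusted p = 6.94e-04). SHISA3 (ENSG00000178343, chromosome 4, 42397839 to 42402487, plus strand) was at 16.6, 14.6 and 15.9 CPM and 0.992, 1.28 and 0.892 CPM, 14.9-fold lower (log2 fold change -3.89, SE 0.31, adjusted p = 1.06e-04). The groups of both were far apart and both calls held without any 1 library; SHISA3 changed by -4.06 without VGF library 2. In the WNT list of 41 tested genes these were the 2 called, 23 were positive and the median was 0.027 (0.011 to 0.056 with 1 library left out). RNF128, the E3 ubiquitin ligase GRAIL, was at 6.06, 6.96 and 9.14 CPM and 3.28, 3.43 and 3.71 CPM (log2 fold change -1.09, SE 0.16, adjusted p = 0.00896), and held without any 1 library (highest adjusted p 0.0298).

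The lineage factors SOX2 and SOX9 fell. SOX2 (ENSG00000181449, chromosome 3, 181711924 to 181714436, plus strand), a factor of foregut and airway basal cells, was at 6.03, 6.27 and 5.38 CPM in the control libraries and 1.23, 2.17 and 1.61 CPM in the VGF libraries (log2 fold change -1.81, SE 0.35, adjusted p = 0.0379). All VGF libraries were below all control libraries, and the call was lost without control library 1 (0.113), control library 2 (0.111), control library 3 (0.072), VGF library 1 (0.0777) or VGF library 3 (0.089). SOX9, a factor of distal lung progenitors, was at 56.5, 53.4 and 63.3 CPM and 41.4, 38.8 and 44.4 CPM (log2 fold change -0.48, adjusted p = 0.0167), with an adjusted p of 0.0454 without VGF library 2, and its call was lost without control library 1 (0.0547) or control library 3 (0.0527). Of the 40 tested genes of the stem and lineage list 20 were positive with a median of 0.0095 (-0.041 without VGF library 2 and 0.057 without control library 2), LBH rose, and SOX9, SOX2 and CD44 fell.

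Matrix and cell-surface genes gave 13 falls, the largest group among them. FBN2, a fibrillin of elastic microfibrils, was at 282, 297 and 289.6 CPM in the control libraries and 183, 150.2 and 173 CPM in the VGF libraries (log2 fold change -0.78, SE 0.072, adjusted p = 4.14e-04). MFGE8, a bridging protein that binds phosphatidylserine and integrins, was at 54.8, 56.9 and 52 CPM and 32.7, 31 and 35 CPM (log2 fold change -0.73, SE 0.082, adjusted p = 0.00132). FCGBP, which is secreted with mucins, was at 129.6, 109.8 and 129 CPM and 69.9, 56.5 and 78.2 CPM (log2 fold change -0.85, SE 0.12, adjusted p = 0.0103). These 3 held without any 1 library, with every VGF library below every control library. HAPLN3, a link protein that binds hyaluronan, was at 7.25, 8.84 and 7.25 CPM and 2.91, 2.86 and 2.39 CPM (log2 fold change -1.52, SE 0.23, adjusted p = 0.0103), and its call was lost without VGF library 3 (0.0502).

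COL5A2, a fibrillar collagen chain, also held throughout, at 636, 629 and 661 CPM in the control libraries and 435, 446 and 464 CPM in the VGF libraries (-0.52, adjusted p = 0.00236). Smaller falls were those of CD44, the hyaluronan receptor (-0.16), NRCAM, a neuronal adhesion molecule (-0.28), CD68, a lysosomal glycoprotein (-0.42), and the gene named CPM, which encodes carboxypeptidase M (-0.49). CD44 and NRCAM were not called without VGF library 2 (adjusted p = 0.114 and 0.0608), and CD68 and the carboxypeptidase gene were (0.0462 and 0.0399). CD68 shares 81.7% of its exonic bases with a readthrough gene. Of the 13, the calls kept without control libraries 1, 2 and 3 and VGF libraries 1, 2 and 3 numbered 9, 8, 7, 9, 9 and 6. The list of matrix and microfibril genes had 24 of 39 positive with a median of 0.085 (0.036 without VGF library 2), and FBN2 and HAPLN3 were its 2 calls. The collagen list had 13 of 24 positive, a median of 0.0078 (-0.019 to 0.097 over the fits that left out a library) and COL5A2 as its 1 call.

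5 genes of glycan-modifying enzymes fell, none of them called without VGF library 2, and GALNT1, described below with the secretory pathway, rose. ST6GAL1, which adds terminal sialic acid, was at 26, 24.2 and 29.5 CPM in the control libraries and 18.5, 19.4 and 16.5 CPM in the VGF libraries (-0.55, adjusted p = 0.0419, and 0.0571 without library 2). MGAT5, which branches N-glycans, changed by -0.32, ENGASE, which removes N-glycans, by -0.38, and POMGNT1, an O-mannose glycosyltransferase, by -0.28, with adjusted p-values without VGF library 2 of 0.0939, 0.114 and 0.0989. The mucin, goblet and airway secretory list had 7 of 28 positive and a median of -0.21, which was -0.093 without VGF library 2 and -0.36 without VGF library 1, and its 2 calls were FCGBP and ST6GAL1.

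Genes of vesicle release, ion channels and neural signalling gave 9 falls. UNC13B, which primes vesicles for release, was at 76.6, 72 and 82.7 CPM in the control libraries and 52.3, 55.5 and 54.8 CPM in the VGF libraries (-0.51, SE 0.059, adjusted p = 0.00171). GNAI1, an inhibitory G protein alpha subunit, was at 70.7, 73.3 and 77.6 CPM and 54.3, 49.9 and 46 CPM (-0.56, SE 0.072, adjusted p = 0.00333). Both held without any 1 library. SYT1, the calcium sensor of regulated exocytosis, was at 20.7, 20.9 and 25.2 CPM and 13.7, 11.4 and 15.4 CPM (log2 fold change -0.72, SE 0.14, adjusted p = 0.043), and although its groups did not overlap, the call was lost with any 1 of the 6 libraries left out (adjusted p of 0.0941, 0.0929, 0.11, 0.0739, 0.111 and 0.0565 for control libraries 1 to 3 and VGF libraries 1 to 3). KCNMA1, the large-conductance potassium channel, changed by -0.53 and was called without VGF library 2 (adjusted p = 0.028). DLG4, a synaptic scaffold (-0.43), CACNA2D1, a calcium channel subunit (-0.40), and ITPR2, an inositol trisphosphate receptor (-0.26), were not called without it (0.0989, 0.0726 and 0.0989).

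In the list of neural adhesion and synapse genes, 15 of 40 were positive with a median of -0.055, 4 fell and 1 rose. The median was 0 without control library 1 and -0.12 without VGF library 3, and each of the 6 fits that left out a library called 2 members lower. The riser, ADGRL2, a latrophilin adhesion receptor, was at 1.05, 0.926 and 0.752 CPM in the control libraries and 2.53, 3.99 and 1.67 CPM in the VGF libraries, highest in VGF library 2. It was called without VGF library 2 at a log2 fold change of 1.19 against 1.60 with it, and its call was lost without control library 1 (0.0728), control library 2 (0.0757) or control library 3 (0.0733). ADGRB3, another adhesion receptor, was at 2.65, 2.36 and 2.11 CPM and 0, 0.205 and 0.173 CPM (adjusted p = 0.00103), and held without any 1 library. GABRA3, a GABA receptor subunit, rose by 0.65 (7.66, 6.63 and 7.61 CPM against 10.9, 10.7 and 12.8 CPM, adjusted p = 0.0499), and no call remained with any 1 library left out (highest adjusted p 0.16).

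Genes of splicing and RNA handling gave 6 falls. KHDRBS3 (a STAR family splicing factor) was at 14.8, 18.7 and 13.6 CPM in the control libraries and 1.98, 3.4 and 1.9 CPM in the VGF libraries, 6.46-fold lower (log2 fold change -2.68, SE 0.27, adjusted p = 6.31e-04). VGF library 2 was the highest of the VGF libraries for this gene, and without it the change was -3.01. CLK1, a kinase of SR splicing proteins, was at 38.6, 45.5 and 48.2 CPM and 25.8, 29.1 and 23.3 CPM (log2 fold change -0.76, SE 0.11, adjusted p = 0.00896). HELZ, an RNA helicase, changed by -0.39, and these 3 held without any 1 library, with highest adjusted p-values of 0.00526, 0.0408 and 0.0402. SRSF5 (-0.25), an SR protein, was called without VGF library 2 (adjusted p = 0.0303), and PNN (-0.22), which sits at spliced junctions, was not (0.0989). In the splicing and RNA-binding list of 41 tested genes 22 were positive, the median was 0.0044 (0 to 0.020 with 1 library left out) and KHDRBS3 and CLK1 were the 2 calls.

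5 genes tied to the NF-kB and ERK pathways, as regulators or targets, fell. NFKBIA, the inhibitor that holds NF-kB in the cytosol and is itself an NF-kB target, was at 128, 123 and 118 CPM in the control libraries and 93.4, 102 and 102 CPM in the VGF libraries (-0.31, adjusted p = 0.0473). TRAF1, a signalling adaptor, was at 11.9, 12.3 and 11.9 CPM and 9.64, 7.54 and 6.68 CPM (-0.60, adjusted p = 0.0485). SOD2, the mitochondrial superoxide dismutase, changed by -0.21, DUSP5, a nuclear ERK phosphatase, by -0.42, and SHC1, an adaptor of receptor tyrosine kinases, by -0.23. Without VGF library 2, SHC1 was called (adjusted p = 0.047), and NFKBIA (0.0745), TRAF1 (0.117), SOD2 (0.104) and DUSP5 (0.0572) were not. Without control libraries 1, 2 and 3 and VGF libraries 1 and 3 the calls kept were 1, 0, 1, 2 and 0 of 5. The list of NF-kB targets and cytokines had 16 of 38 positive and a median of -0.062, with SOD2, NFKBIA and TRAF1 as its calls. Leaving out VGF libraries 1, 2 and 3 in turn gave medians of -0.0033, -0.039 and -0.099. The MAPK feedback and RAS regulator list had 15 of 32 positive, a median of -0.015 (-0.049 to 0.0019 over the 6 fits that left out a library) and DUSP5 as its 1 call.

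6 further genes fell that belong to none of these groups. PCED1A was at 62.9, 60.2 and 58.2 CPM in the control libraries and 48.5, 43.4 and 44.8 CPM in the VGF libraries (-0.41, adjusted p = 0.0106), and it was called without VGF library 2 (adjusted p = 0.0314). POLR3A, the largest subunit of RNA polymerase III (-0.23), TFB1M, which methylates mitochondrial ribosomal RNA (-0.56), ANKRD33B (-0.36), GOLGA8B (-0.36) and FAM156B (-0.34) were not (0.0989, 0.121, 0.083, 0.126 and 0.0654). GOLGA8B and FAM156B have near-identical copies, so their counts are uncertain.

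Secreted and signalling proteins other than VGF also rose. FSTL1, a secreted follistatin-like glycoprotein, was at 36.1, 41 and 41.4 CPM in the control libraries and 56.4, 87 and 57.7 CPM in the VGF libraries (log2 fold change 0.76, SE 0.13, adjusted p = 0.0245). VGF library 2 was the highest, and without it the change was 0.53 (adjusted p = 0.00413); the call was lost without control library 1 (0.103), control library 2 (0.0729) or control library 3 (0.0573). ANXA3, an annexin (0.49), CCDC80, a matrix protein (0.41), and PRSS23, a secreted serine protease (0.27), were called without VGF library 2 too (adjusted p = 0.0331, 0.0171 and 0.038). FYN, a SRC family kinase, was at 3.84, 4.48 and 3.31 CPM and 5.47, 7.11 and 5.76 CPM (log2 fold change 0.66, SE 0.13, adjusted p = 0.0442), again highest in VGF library 2, and its call was lost without control library 1 (0.15), control library 2 (0.0503), control library 3 (0.116), VGF library 2 (0.128) or VGF library 3 (0.071). CYTH3, an exchange factor for ARF GTPases, changed by 0.30 and held without any 1 library (highest adjusted p 0.0459). The signalling adaptor SH3BP2 (0.36) and the low-level kinase genes CDK14 (0.204, 0 and 0.0902 CPM against 0.376, 1.43 and 1.06 CPM) and STYK1 (0.233, 0.0597 and 0.211 CPM against 0.376, 1.74 and 1.15 CPM) were not called without VGF library 2, at adjusted p-values of 0.12, 0.0726 and 0.114.

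6 genes, most of them of the membrane and secretory pathway and grouped after the calls were seen, rose by 0.23 to 0.36 on the log2 scale. They were TRAM1, of the translocon (523, 539.8 and 599 CPM against 653, 682 and 681 CPM, 0.28), GALNT1, which starts O-glycans (0.28), RAB31, a small GTPase of Golgi and endosomes (0.26), TBC1D31, a centriolar satellite protein (0.36), ATP13A3, a polyamine transporter (0.24), and ARL6IP1, which shapes the endoplasmic reticulum (0.23). None of the 6 was called without VGF library 2, where the adjusted p-values reached 0.141. Without control libraries 1, 2 and 3 and VGF libraries 1 and 3 the calls kept were 0, 0, 3, 4 and 0.

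Some called genes had no count in 1 of the groups. All 3 VGF libraries were at 0 for 7 annotated genes. TENM2, a teneurin adhesion molecule (ENSG00000145934, chromosome 5, 167284799 to 168264157, plus strand), had 32, 20 and 29 counts in the control libraries, at least 27.5-fold lower with VGF, taking 3 counts over the group as the floor. PAK3, a kinase downstream of RAC and CDC42, had 16, 11 and 10 counts, at least 12.6-fold lower. Both calls held without any 1 library (highest adjusted p 0.0107 and 0.00568). PKHD1 (fibrocystin, 12, 13 and 31 counts), ANGPTL6 (a secreted angiopoietin-like protein, 6, 7 and 7), GLB1L3 (10, 5 and 4), HOXA11 (3, 3 and 4) and TDRD9 (a germline RNA helicase, 5, 2 and 2) were at least 19-, 6.8-, 6.46-, 3.4- and 3.06-fold lower, and none was called without VGF library 2 (adjusted p = 0.0968, 0.109, 0.0848, 0.121 and 0.156). HOXA11 shares 31.1% of its exonic bases with its antisense gene. All 3 control libraries were at 0 for the zinc finger genes ZNF793 (7, 4 and 6 counts in the VGF libraries, at least 5.56-fold higher) and ZNF649 (3, 11 and 5, at least 6.21-fold) and for ERICH6 (6, 15 and 16, at least 12.1-fold). These 3 were also called without VGF library 2 (adjusted p = 0.00952, 0.0333 and 0.0399). ZNF793 held without any 1 library, ZNF649 was lost without control library 1 (0.0508) and ERICH6 without control library 1 (0.0534) or VGF library 3 (0.0512). Each of those fits kept the H1299 libraries, where ZNF793 was at 21.6 to 25.5 CPM and ZNF649 at 3.50 to 5.66 CPM. With the A549 libraries fitted alone, none of these 3 genes was tested, so their calls rest on the joint fit.

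With VGF library 2 left out, 29 features were called that had not been called with it, 15 higher and 14 lower, and those named here were chosen after their values were seen. In each of the 14 that were lower, VGF library 2 was above VGF libraries 1 and 3. Choosing features that were called only without that library favours this order, so it is not a separate result. NES, an intermediate filament gene also expressed in endothelium, was at 7.95, 7.94 and 5.71 CPM in the control libraries and 1.3, 43.2 and 2.85 CPM in the VGF libraries, a log2 fold change of -1.78 between libraries 1 and 3 and the controls (adjusted p = 0.0325). ZNF160 was at 1.66, 1.31 and 1.98 CPM and 0, 1.07 and 0.0863 CPM, and 5 of the 14 were zinc finger genes of that naming series, ZNF160, ZNF229, ZNF518B, ZNF121 and ZNF260. Of the series 476 genes were tested with all libraries, and their median log2 fold change was 0 (-0.034 without VGF library 2, where 5 were called lower and 2 higher). SPRY4, an inhibitor of ERK signalling, was at 30.5, 30.6 and 31.2 CPM and 23, 30.8 and 21.2 CPM (-0.48, adjusted p = 0.0102), and CD55, a complement regulator, at 77.2, 84 and 94.7 CPM and 65.8, 72.9 and 60.4 CPM (-0.44, adjusted p = 0.047).

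Among the 15 rises found without VGF library 2, that library was above the other VGF libraries in 4. They include CTGF, a matricellular YAP target (22.4, 22.6 and 23.5 CPM against 38.4, 206 and 56.1 CPM), MT2A, a metallothionein (50.6, 41.3 and 58.7 against 73.3, 168 and 76.9), and BCAT1, which transaminates branched-chain amino acids (6.32, 6.45 and 6.8 against 11, 27.7 and 10.2). In these 3, libraries 1 and 3 were also above every control library, and the log2 fold changes without library 2 were 1.05, 0.58 and 0.70 (adjusted p = 0.00766, 0.0399 and 0.00118). KRT18, the simple-epithelial keratin (0.31, adjusted p = 0.0314), TGFBI, a TGF-beta induced matrix protein (0.34, 0.0314), VLDLR, a lipoprotein receptor (0.39, 0.0399), and WWC1, the Hippo regulator KIBRA (0.36, 0.0399), were lower in library 2 than in libraries 1 and 3. The choice of features favours that order too. EGR1 and DUSP1, early-response genes, were also called in that fit (4.21 and 0.98), with DUSP1 at 64.8, 76 and 75.9 CPM and 100.2, 103 and 184 CPM, and both were highest in VGF library 3.

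The same vector in H1299 gave 2 called features of 18228 (0.0110%), VGF higher (0.00549%) and NRCAM lower (0.00549%), and both were also called in A549. VGF had a log2 fold change of 3.52 in H1299 and NRCAM of -0.95, against -0.28 in A549. In H1299, VGF was at 77.2, 90.5 and 89 CPM in the control libraries and 886, 941 and 1114 CPM in the VGF libraries. The lines thus differed more in their VGF level with the empty vector than in the level reached with VGF. For the 102 genes other than VGF that were called in A549, met the criteria for naming and had at least 5 CPM in H1299, 55 had the same sign in H1299, and the median absolute log2 fold change was 0.069 there and 0.36 in A549. In H1299 the log2 fold change of 67 of them was under 0.1 in size. The A549 values of these genes are those that chose them. The difference between the lines was itself called for 29 features (0.159%), 16 of them above 0 as H1299 minus A549 (0.0878%) and 13 below (0.0713%), of which 21 were among the 144. The H1299 log2 fold change was -0.35 for KHDRBS3, 0.072 for MAGEA3, -0.088 for FBN2, 0.18 for RNF128 and -0.14 for WIPF1, and none of these passed the test in H1299. For the mitosis group the difference between the lines was called for none of the 14 genes by edgeR, and the difference of PTTG1 was -0.35 (SE 0.071, adjusted p = 0.0846).

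**Figure D5:**
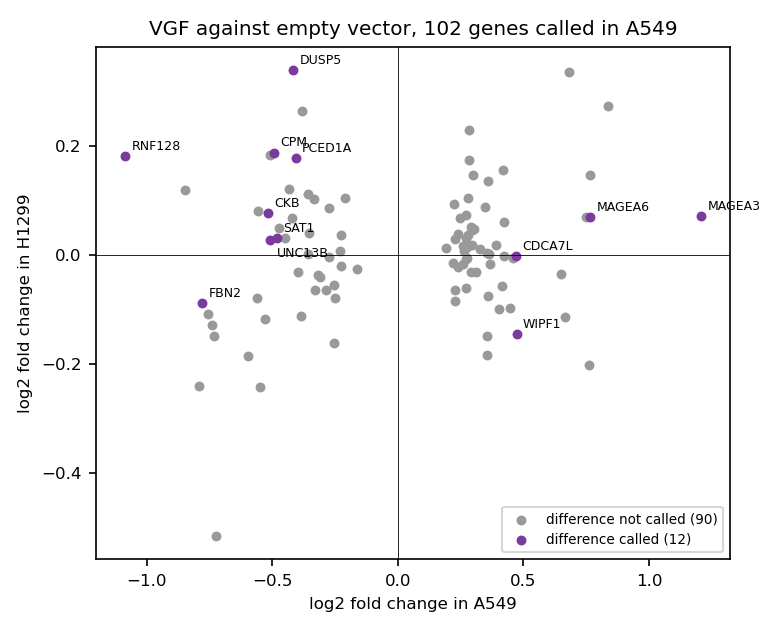
Log2 fold change of VGF over empty vector in A549 (x axis) and in H1299 (y axis) for the 102 genes other than VGF that were called in A549 and had at least 5 CPM in H1299. Purple points with names are the 12 genes whose difference between the lines was called; most points lie near 0 on the y axis, and 67 are under 0.1 in size there.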

How the data were processed

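RNA from 12 samples was sequenced as 1 library each, from messenger RNA captured on beads out of total RNA, per the labels' protocols. The authors deposited a table of read counts per feature and a table of FPKM values for 12 libraries, per the file headers; the submitters' processing notes name GRCh38 and DESeq2 without a version. For the aligner, counter, annotation and strand setting, the sources used here give nothing. Of 26535 features, 19974 carry an Ensembl identifier and 6561 are unannotated loci.

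The counts of all 12 libraries were fitted together (4 group means) with edgeR 4.0.16 in R 4.3.3, after scaling by TMM, by the quasi-likelihood F test with Benjamini-Hochberg adjustment, on the 18228 features that passed filterByExpr. Calls were made below an adjusted p of 0.05. Alternatives used DESeq2 1.42.0, limma 3.58.1 with voom, log2(FPKM + 1) and log2(FPKM + 0.1). Values of 0 take a floor of 3 counts over the group.

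The genes named with full statistics include the 12 largest rises, VGF among them, and the 12 largest falls among called annotated genes with at least 5 CPM in a group and 1 direction in all 9 library pairs. Other such genes are named within their group. Some of these, such as PTTG1, TPX2, CDCA7L, MORC4, WIPF1, UNC13B and GNAI1, also have full statistics although their changes were smaller. The members and gene lists were chosen with earlier results of these data known, and functional groups were formed after the calls were seen. Exon sharing was computed from GENCODE 29 (GRCh38). Promoter sequences are from RefSeq.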

Additional observations from a re-analysis of the deposited data

Results flagged for a closer look

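For 21 of the 144 features called in A549 the log2 fold change differed between the lines by edgeR's test of the difference (H1299 minus A549, adjusted over 18228 features). Among those higher in A549 the difference was -5.52 for VGF, which rose in both lines (9.04 and 3.52), -1.14 for MAGEA3, -0.70 for MAGEA6, -0.62 for WIPF1 and -0.47 for CDCA7L. For VGF the control libraries were at 2.02 to 2.74 CPM in A549 and 77.2 to 90.5 CPM in H1299. The VGF libraries were at 1201 to 1361 and 886 to 1114 CPM. ERICH6 and ZNF793, at 0 in every A549 control library, had fitted differences of -7.67 and -5.74, whose size depends on the prior count.

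Among those lower in A549 the differences were smallest for SAT1 (0.51), UNC13B (0.53), PCED1A (0.59), CKB (0.60), CPM, the carboxypeptidase M gene (0.68), FBN2 (0.69) and DUSP5 (0.76). Larger differences were those of RNF128 (1.27), KHDRBS3 (2.34), SHISA3 (3.37) and ADGRB3 (4.27). PAK3 (6.71), TENM2 (6.98) and the unannotated locus Homo_sapiens_newGene_12328 (7.43) were at 0 in every A549 library with VGF, so these fitted values are no bounds. With the exception of VGF, none of the 21 was called in H1299 alone, where edgeR called 2 features. DUSP5 had a log2 fold change of -0.42 in A549 and 0.34 in H1299, RNF128 of -1.09 and 0.18, and WIPF1 of 0.47 and -0.14.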

How the results depend on the processing

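The number of calls depended on the fit. Leaving out 1 library gave 52 to 119 calls against 144, with 23 to 76 higher and 23 to 45 lower against 74 and 70. DESeq2 called 729 (430 higher, 299 lower) and limma with voom 334 (155 higher, 179 lower). On log2(FPKM + 0.1) 47 were higher and 57 lower, and on log2(FPKM + 1) 81 were higher and 127 lower. Each of the 144 kept its direction under every alternative in which it was tested. Of the 144, 144 were called by DESeq2, 123 by voom, 143 with DESeq2's size factors in edgeR, 129 with upper-quartile scaling, 80 on log2(FPKM + 1) and 64 on log2(FPKM + 0.1). With the A549 libraries fitted alone, 76 features were higher and 103 lower. Of the 144, 134 were tested in that fit and 84 kept the call. Fitting the A549 libraries alone without VGF library 2, an alternative chosen after seeing the data, gave 113 calls, and 52 of 134 kept the call.

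Same-numbered libraries did not deviate together (correlations of -0.0794, -0.084 and 0.00404), so the numbers are not taken to pair them; with a replicate block 63 features were called (42 higher, 21 lower) and 38 of the 144 kept the call. In H1299 the calls numbered 2, and they were 4 without VGF library 2 of A549, 1 with the replicate block and 139 by DESeq2. The difference between the lines was called for 29 features and for 310 by DESeq2. Without VGF library 2, 7 of 52 list medians changed sign.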

Other observations

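25 of the 52 gene lists held no called member, with medians from -0.22 to 0.11, and the genes named from them are among those with the smallest p. The lowest median was that of 34 complement, coagulation and liver-type secreted genes, of which 10 were positive. Without VGF library 2 that list's median was -0.25, with 1 member called higher and 1 lower. C1R, a protease of the classical complement pathway, was at 109, 119.5 and 115 CPM in the control libraries and 82.1, 75.5 and 91.3 CPM in the VGF libraries (edgeR adjusted p = 0.0566, and 0.144 without VGF library 2). Of 47 interferon-stimulated genes 17 were positive with a median of -0.11 (-0.12 without VGF library 2 and -0.072 without control library 3). IRF1, an interferon-induced transcription factor, was at 55.8, 55.8 and 55 CPM and 45.3, 42.7 and 43.8 CPM (adjusted p = 0.0914). The groups did not overlap for C1R or IRF1, and neither passed the test.

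All 13 mitochondrially encoded genes had a log2 fold change of 0 or below, with a median of -0.093 that was -0.057 without control library 1, -0.058 without control library 2 and -0.13 without control library 3, and 5 of the 6 fits that left out a library had 1 positive gene. Of 63 genes of cytosolic ribosomal proteins 56 were positive with a median of 0.066 (0.041 without control library 3 and 0.059 without VGF library 2). Neither list had a call, and MT-CYB, the apocytochrome of complex III, was at 3618, 3412 and 3184 CPM and 2943, 2974 and 3248 CPM, which overlap. NRP2, a semaphorin and VEGF co-receptor, was at 87.4, 85.3 and 88 CPM and 115, 132 and 119 CPM (adjusted p = 0.055), and NTS, which encodes neurotensin, at 35, 34.9 and 47.1 CPM and 21.1, 23.2 and 22 CPM (adjusted p = 0.0561). FGFR1, a fibroblast growth factor receptor, was at 235, 227 and 210.4 CPM and 187, 176 and 197 CPM (adjusted p = 0.0676). In these 3 the groups did not overlap.

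Genes outside the endothelial marker list were also high in VGF library 2 alone, among them S1PR1 and MMP1. S1PR1, a sphingosine-1-phosphate receptor abundant in endothelium, had 2, 0 and 2 counts with the empty vector and 2, 554 and 2 with VGF. MMP1, interstitial collagenase, had 8, 6 and 79 and 57, 13563 and 69 counts. Neither was called (adjusted p = 0.126 and 0.105).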
